A study of Homo sapiens and Mus musculus with 6 samples.

Results

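The Hoxb cluster promoters were the 10 genes Hoxb1, Hoxb2, Hoxb3, Hoxb4, Hoxb5, Hoxb6, Hoxb7, Hoxb8, Hoxb9 and Hoxb13, as named on the fragments of promoter Capture Hi-C in mouse embryonic stem cells (mESCs). A call was kept if either of its ends was a restriction fragment named for a member. There were 499 such calls among 101841 mESC calls, and all 10 genes of the 17014 symbols in that list were present. The human genes of the same symbols gave 143 of 92929 calls in GM12878, a lymphoblastoid B cell line.

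The mESCs were of strain 129S4/SvJae, grown with serum on irradiated feeder cells that were depleted by passaging before fixation, and they were sampled as 2 biological replicates. GM12878 gave 3 biological replicates, and 1 mESC library was sequenced as Hi-C without capture. The paper calls the mESC Hi-C data pre-capture, so they may come from the same material as the capture libraries. Both cell types were fixed with formaldehyde and cut with HindIII, and the labels name no treatment and no engineered allele. The interactions of each cell type were called once on all its replicates together, so no value below has a spread between replicates and no comparison of mESC with GM12878 could be tested. No expression or surface marker was measured, so the labelled cell types could not be checked.

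In Hi-C, DNA ends that lie close together in the fixed nucleus are ligated and sequenced as pairs. Promoter Capture Hi-C then enriches the pairs in which one end, the bait, is a promoter fragment, and the fragment on the far side is called the other end. The read count of a call merges the counts of such pairs over replicates, weighted by library size and rounded by the authors. The paper's methods describe a weighted sum and its supplement a weighted average, so a count is not a plain total of read pairs. The CHiCAGO score is a log-transformed weighted p value that sets this count against the background expected from distance and from both fragments, and the lists hold scores of 5 and above.

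Hox genes encode homeodomain transcription factors that set position along the head-to-tail axis of the embryo. They lie in clusters whose order along the chromosome follows their order of use, with Hoxb1 acting in the hindbrain and Hoxb13 at the tail end. In embryonic stem cells the clusters are largely silent and are classic targets of the Polycomb repressive complexes. Cbx2 and Cbx8, which recur below, encode chromodomain subunits of such a complex, and they lie on the same mouse chromosome as the Hoxb genes.

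The member fragments reached from the Hoxb13 fragment, which starts at chr11:96049739, to the Hoxb1 fragment, which ends at chr11:96230861 (mm9), a stretch of 181 kb. Each mouse gene was named on 1 baited fragment. The fragment named for Hoxb7 also holds an annotated start of Hoxb8, so its contacts cannot be assigned to Hoxb7 alone. The shortest fragment was that of Hoxb5 at 1.84 kb and the longest that of Hoxb13 at 16.0 kb. All 5397 fragments of chromosome 11 in the list matched a HindIII digest of the mm9 sequence. The 200 bases before the annotated start of 3 genes are printed because their fragments carry strong contacts within the cluster (Hoxb5), contacts over 10 Mb (Cbx8) and the longest contacts of the flanks (Neurod2). They are read 5′ to 3′ on the strand of the gene from mm9, each lies in its baited fragment and outside annotated exons, and the capitals mark the dinucleotide CG, which reads alike on both strands.
Hoxb5, chr11:96163709-96163908, plus strand: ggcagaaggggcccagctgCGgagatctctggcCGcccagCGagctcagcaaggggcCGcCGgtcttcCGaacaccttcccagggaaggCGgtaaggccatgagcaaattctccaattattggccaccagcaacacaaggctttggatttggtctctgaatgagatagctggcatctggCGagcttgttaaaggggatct
Cbx8, chr11:118902284-118902483, minus strand: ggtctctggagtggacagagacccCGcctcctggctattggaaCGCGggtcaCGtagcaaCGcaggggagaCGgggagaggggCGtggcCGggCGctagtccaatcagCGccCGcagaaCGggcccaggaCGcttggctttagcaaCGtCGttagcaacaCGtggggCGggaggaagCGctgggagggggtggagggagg
Neurod2, chr11:98190963-98191162, minus strand: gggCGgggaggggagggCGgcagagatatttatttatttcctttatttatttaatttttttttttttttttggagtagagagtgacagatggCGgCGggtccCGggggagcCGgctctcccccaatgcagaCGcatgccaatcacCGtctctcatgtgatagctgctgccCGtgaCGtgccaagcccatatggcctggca
The Cbx8 stretch held 18 CG dinucleotides, the Neurod2 stretch 10 and the Hoxb5 stretch 8. The median over 1608 coding promoters of chromosome 11, taken in the same way, was 10. At least 1 CG was present in 94.1% of them, and 23.4% held as many as Cbx8 or more.

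Of the 499 mESC calls, 262 (52.5%, Wilson 95% interval 48.1 to 56.9) joined 2 fragments within the cluster and 147 (29.5%, interval 25.6 to 33.6) joined a member to a flank, here any fragment outside the cluster but at most 10 Mb away. A further 86 (17.2%, interval 14.2 to 20.8) spanned over 10 Mb of chromosome 11, and 4 led to another chromosome. These intervals cover counting error only, and a pair called from both of its baits counts as 2 calls, so that the 499 calls were 409 distinct pairs. Among all mESC calls, 0.681% spanned over 10 Mb and 0.569% were trans-chromosomal.

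All 10 members were among the busier baits of the list. Hoxb2 had the most calls as bait, 55, followed by Hoxb7 with 52 and Hoxb8 with 51, and Hoxb1 had the fewest with 22. The median over the 16265 baits with a call was 3, and 4.80% of them had as many calls as Hoxb1 or more.

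**Figure D1:**
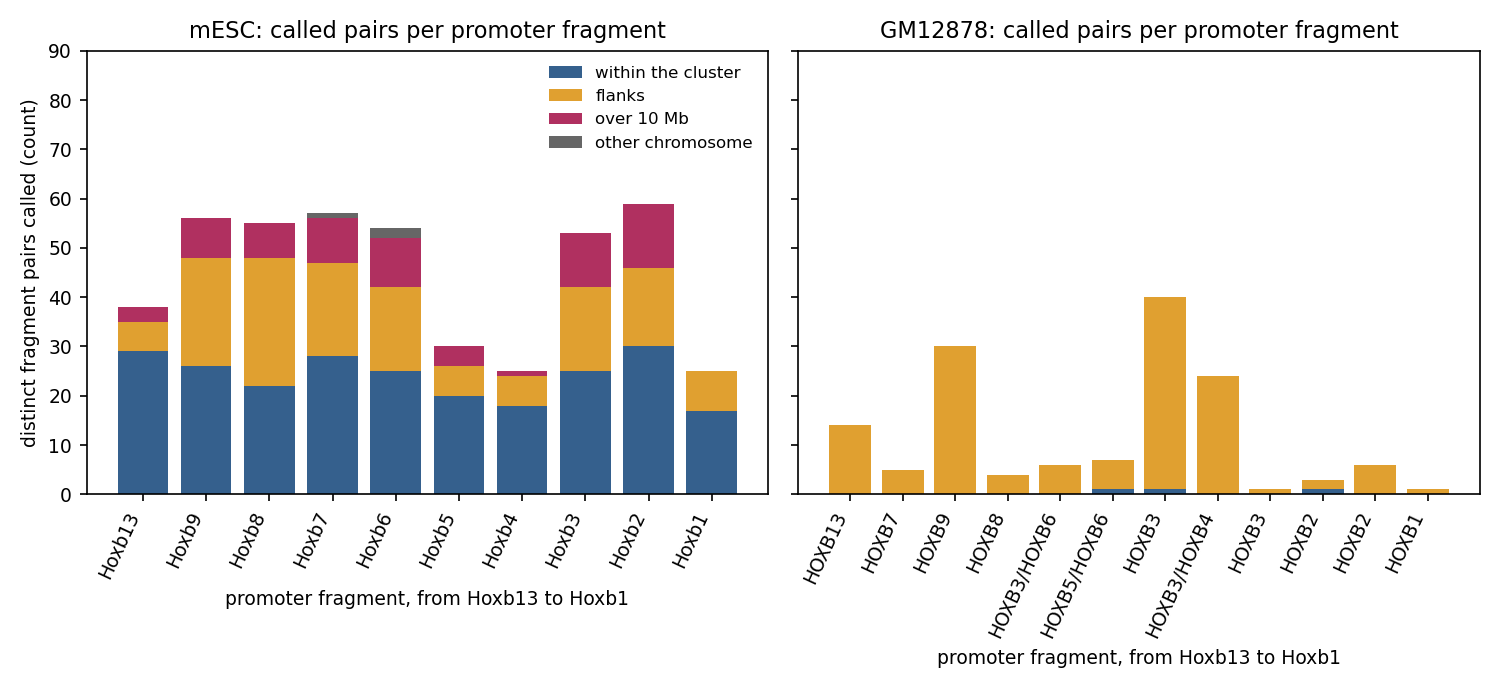
Stacked bars give the number of distinct fragment pairs called (y axis, count) for each promoter fragment named for a member (x axis, from Hoxb13 to Hoxb1), in mESC on the left and GM12878 on the right, split into pairs within the cluster, to the flanks, over 10 Mb and to other chromosomes. In mESC each of the 10 fragments has between 17 and 30 pairs within the cluster, whereas in GM12878 nearly every pair leads to a flank.

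Within the cluster, every pair of member promoters that could be called was called. The 10 fragments form 45 pairs, of which 2 (Hoxb8 with Hoxb7 and Hoxb7 with Hoxb6) are neighbouring fragments. The list held no call between neighbouring fragments among its 101841 lines. All the other 43 pairs were called, and 36 of them from both baits. Among all pairs of baited fragments that lay at the same distances, between 8.69 and 171 kb, 29.9% were called (15399 of 51453, the 43 included). The pairs called from 1 bait alone were mostly neighbours in gene order (Hoxb9 with Hoxb8, Hoxb6 with Hoxb5, Hoxb5 with Hoxb4, Hoxb4 with Hoxb3), and the others joined Hoxb1 to Hoxb3, Hoxb4 and Hoxb13. A baited fragment here is one that the list shows as bait or by name, so baits without any call are not in that background.

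The merged read counts of the 43 pairs ran from 22 for Hoxb13 with Hoxb1, at 171 kb, to 211 for Hoxb3 with Hoxb2, at 26.9 kb, with a median of 86. The highest counts after Hoxb3 with Hoxb2 were 206 for Hoxb7 with Hoxb2 and 206 for Hoxb9 with Hoxb8, although the first pair lay 65.1 kb apart and the second 8.69 kb apart. The highest count of any call within the cluster, 232, joined Hoxb2 to the nearby fragment named for the noncoding gene Gm11536, at 7.30 kb. Over all 262 calls within the cluster the median was 65 reads. Over all 56952 mESC calls of the same distance range it was 18. Those calls were matched by distance range only, and not by whether the other end was also a bait. Many calls within the cluster had a bait at each end, and the paper reports a higher background for such pairs. How much of the difference between the medians came from this was not tested.

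The highest score within the cluster belonged to the bait of Hoxb5 with Hoxb2, a gene of hindbrain identity. That call had a score of 68.23 on 138 reads at 48.2 kb, and the same pair seen from the Hoxb2 bait scored 27.91. The next highest were Hoxb2 to Hoxb7 with 51.19, Hoxb2 to an unnamed fragment between Hoxb6 and Hoxb5 (chr11:96157679-96163174) with 47.26 on 127 reads, Hoxb2 to Hoxb9 with 44.11 on 164 reads, and Hoxb4 to Hoxb7 with 37.75 on 86 reads. The unnamed fragment holds the annotated start of 1 of the Hoxb6 transcripts. Hoxb2 stood at 1 end of 4 of these 5 calls.

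Hoxb1, Hoxb4, Hoxb5 and Hoxb13 had the lower counts. Hoxb1 had a median of 49 reads over its calls within the cluster, Hoxb13 of 43, Hoxb4 of 52 and Hoxb5 of 53. The medians were 122 for Hoxb3, 95 for Hoxb2 and 92 for Hoxb6. Hoxb1 and Hoxb4 differ in place, since Hoxb1 closes the cluster and Hoxb4 lies in its middle. Read counts also depend on how well each bait was captured, on distance and on fragment length. The length was 3.81 kb for Hoxb1, 3.46 kb for Hoxb4, 1.84 kb for Hoxb5, 16.0 kb for Hoxb13 and 5.45 kb for Hoxb3. Hoxb13 lay 75.2 to 171 kb from the other members. The part of capture, distance and length in the differences was not tested.

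**Figure D2:**
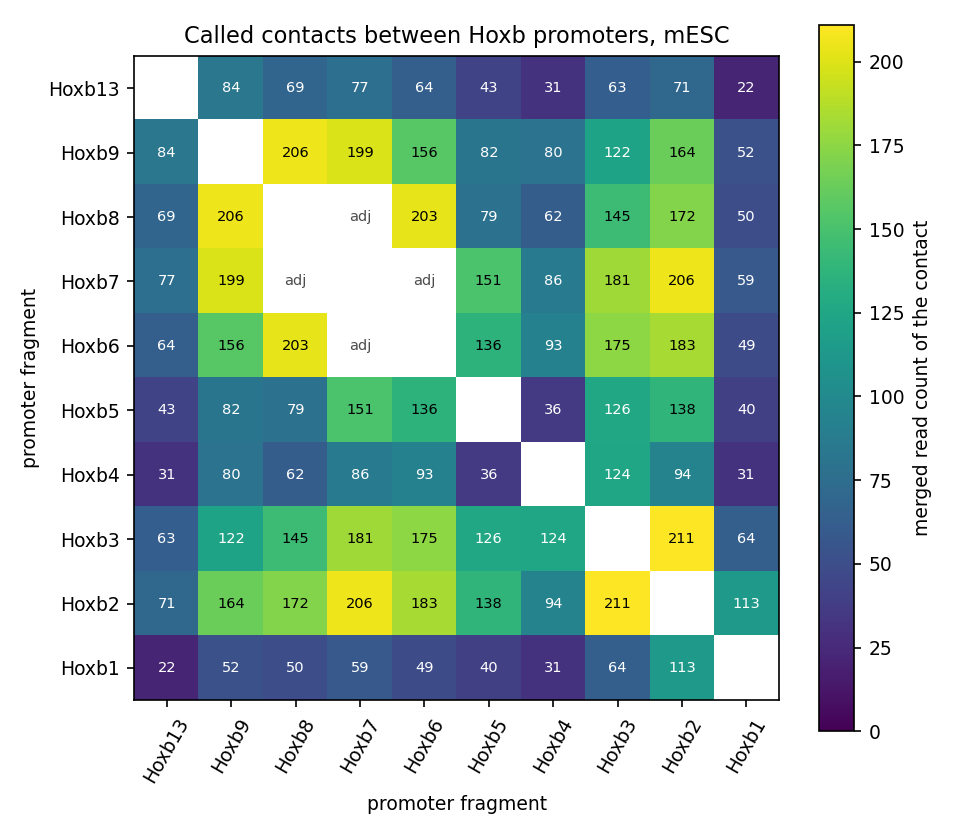
Merged read counts of called contacts between the 10 Hoxb promoter fragments in mESC, with the fragments in chromosomal order on both axes and the colour and printed number giving the read count. Every pair is filled except the 2 marked adj, which are neighbouring fragments, and the lowest value is 22, for Hoxb13 with Hoxb1.

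The fragments between the promoters divided into 2 stretches. Between Hoxb9 and Hoxb1 lay 20 HindIII fragments not named for a member, 58.3 kb in all, and 18 of them were called from at least 1 member, with a median of 6.5 members each. Between Hoxb13 and Hoxb9 lay 21 fragments over 64.4 kb, of which 8 were called and the median was 0. The 12 fragments from chr11:96073383 to 96110153 had no call from any member. The fragment named for Gm53 (chr11:96110154-96115569), just beyond that stretch, was called with all 10. Such a gap is not an absence of contact, since a pair is listed only from a score of 5.

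Other genes of the cluster, listed as noncoding although the annotation calls Gm53 coding, shared these contacts. Of the 6 listed names, which hold Mir196a-1 under a further spelling too, 3 were named on a fragment in the list. Gm53, Hoxb3os and Mir196a-1 (the gene of a microRNA that targets Hox transcripts) were all contacted, in 35 calls. Mir10a was not named, although its annotated start lies on the Hoxb4 fragment. The baits of other genes shared many other ends with the member baits. Gm11536 shared 28 of the 85 other ends outside the member fragments and 0610040B09Rik 27. Both lie within the cluster, and the Gm11536 fragment (chr11:96202576-96208270) also holds an annotated start of Hoxb3.

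On the flanks, the strongest contacts lay just outside the Hoxb13 end. The first 10 flank calls by score all led from a member to 1 of 3 fragments between chr11:96030230 and 96042984, which overlap no coding gene. The fragment chr11:96036683-96038843 was called from all 10 members, and its neighbours chr11:96030230-96036682 and chr11:96039340-96042984 from 9 each. The highest score was 47.27, for Hoxb2 on 71 reads at 175 kb, followed by 44.57 for Hoxb2 and 40.06 for Hoxb7. The fragment chr11:96043002-96047880 was called from 7 members, the fragment chr11:96038844-96039339 from 6, and the last pair before Hoxb13 (chr11:96047881-96048666 and chr11:96048667-96049738) from 5 each.

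Further out on that side, the promoter of Ttll6, a tubulin-modifying enzyme, was paired with 8 members on 10 to 17 reads. The Hoxb13 side held 64 flank calls in all, to 12 fragments at up to 373 kb. The Hoxb1 side held 83 calls, to 37 fragments at up to 2.05 Mb, on a median of 11 reads against 28 on the other side. By member, Hoxb8 had the most flank pairs with 26, ahead of Hoxb9 with 22, Hoxb7 with 19, Hoxb3 and Hoxb6 with 17 and Hoxb2 with 16. Hoxb1 had 8, and Hoxb4, Hoxb5 and Hoxb13 had 6 each.

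The Hoxb1 side began with a pair of unnamed fragments (chr11:96230862-96234514 and chr11:96268418-96272616), each paired with 5 members. It went on through introns of Skap1, an adaptor of T cell signalling, where chr11:96391046-96398046 was paired with 4 members and chr11:96404373-96406784 with 3. Then came the promoters of Snx11, Cbx1, Nfe2l1 and Copz2 at 438 to 580 kb. Cbx1, a heterochromatin protein and not a Polycomb subunit, was paired with Hoxb2, Hoxb3, Hoxb6 and Hoxb8, on 6 to 9 reads. Snx11, a sorting nexin, Nfe2l1, a transcription factor, and Copz2, a coatomer subunit, were paired with 3 members each. The fragment chr11:96722378-96730568, which overlaps exons of Copz2, was paired with 7 members and scored up to 12.87, and chr11:96718171-96721179, also over Copz2, with 3. Of the 36 neighbouring genes listed, 27 were named on a fragment and 12 were contacted, in 30 calls. Among the others contacted were Atp5g1, B4galnt2, Cdk5rap3, Skap1, Sp2 and Sp6. The share of all baited pairs called at these distances was not taken, so this count cannot be called high or low.

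The longest flank contacts led to Neurod2, a transcription factor of neuronal differentiation, at 1.98 to 2.05 Mb. Hoxb7 had the highest count with 14 reads, and scores of 14.47 and 15.27 from the 2 baits. Hoxb2 and Hoxb6 had 11 reads each, Hoxb3 and Hoxb8 had 8, and Hoxb5 had 6. In all, 6 of the 10 possible pairs were called, against 0.118% of all pairs of baited fragments at these distances (34 of 28844, the 6 included). Hoxb1, Hoxb4, Hoxb9 and Hoxb13 were without such a call. Neurod2 was named because it carried the longest flank calls, so a high share follows in part from that choice. The member fragments lie close together and are not separate trials. Apart from Neurod2, the only flank call over 1 Mb was from Hoxb2 to the unnamed fragment 3221 bases from Neurod2 (chr11:98179488-98183508), on 7 reads.

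Over 10 Mb, the Hoxb promoters met Cbx2 and Cbx8. Of the 86 calls, which involved 9 of the 10 member fragments, 41 led to 7 fragments whose nearest coding gene was Cbx2 or Cbx8, between chr11:118883404 and 118913166, at 22.7 to 22.8 Mb. These 41 calls were 31 pairs, and 8 of the 10 members took part. Of all baited fragments, 1.4% had a call over 10 Mb and 7.75% a call over 1 Mb.

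Cbx8 was paired with 6 members. The read counts were 11 for Hoxb7, 10 for Hoxb6, 9 for Hoxb2 and for Hoxb9, and 8 for Hoxb3 and for Hoxb8, with scores of up to 30.58. Cbx2 was paired with Hoxb3, Hoxb5, Hoxb6 and Hoxb9, on 5 reads each. Hoxb3, Hoxb6 and Hoxb9 were thus paired with both.

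Together 10 of the 20 possible pairs between members and the Cbx2 and Cbx8 promoters were called, and all 10 from both ends. Among all pairs of baited fragments at these distances, 0.123% were called (25 of 20251, the 10 included). The 25 also hold other pairs with a member fragment, so this share is not free of Hoxb contacts. Cbx2 and Cbx8 were named because they carried such calls, so a high share follows in part from that choice. The Cbx8 fragment measures 10716 bases and the Cbx2 fragment 2330, and the part of fragment length in the order of their counts was not tested.

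Unnamed fragments nearest to these promoters were contacted as well. Next to Cbx8, chr11:118904212-118905176 was paired with 4 members, and scored 41.07 with Hoxb3 on 12 reads. The fragment after it, chr11:118905177-118908719, was paired with 6 members on up to 8 reads. The fragment chr11:118908720-118910603, 6437 bases from Cbx8, was paired with 5 members and had 12 reads with Hoxb7. Counts at Rbfox3 and Tbc1d16 lay within the range of the calls to the 7 Cbx2 and Cbx8 fragments, which was 4 to 12 reads with a median of 6. The fragment with a start of Rbfox3 (chr11:118769780-118772079) had 6 reads with Hoxb3 and 4 with Hoxb7, and a fragment in Tbc1d16 (chr11:119068239-119074813) had 4 reads with Hoxb7.

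The members differed in their share of these contacts. Hoxb2 and Hoxb3 had 6 pairs each with the 7 fragments, Hoxb6 5, Hoxb8 and Hoxb9 4 each, Hoxb7 3, Hoxb5 2, Hoxb13 1, and Hoxb1 and Hoxb4 0. The members with fewer pairs here also had lower counts within the cluster, where Hoxb1, Hoxb4, Hoxb5 and Hoxb13 had medians of 43 to 53 reads and the other 6 of 73.5 to 122. The distant calls of the Cbx2 and Cbx8 baits ran mostly the same way. All 7 distant calls of the Cbx2 bait ended in the Hoxb cluster, as did 12 of 14 for the Cbx8 bait. Distant calls were not limited to those over 10 Mb here, since shorter and trans-chromosomal calls were counted too.

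**Figure D3:**
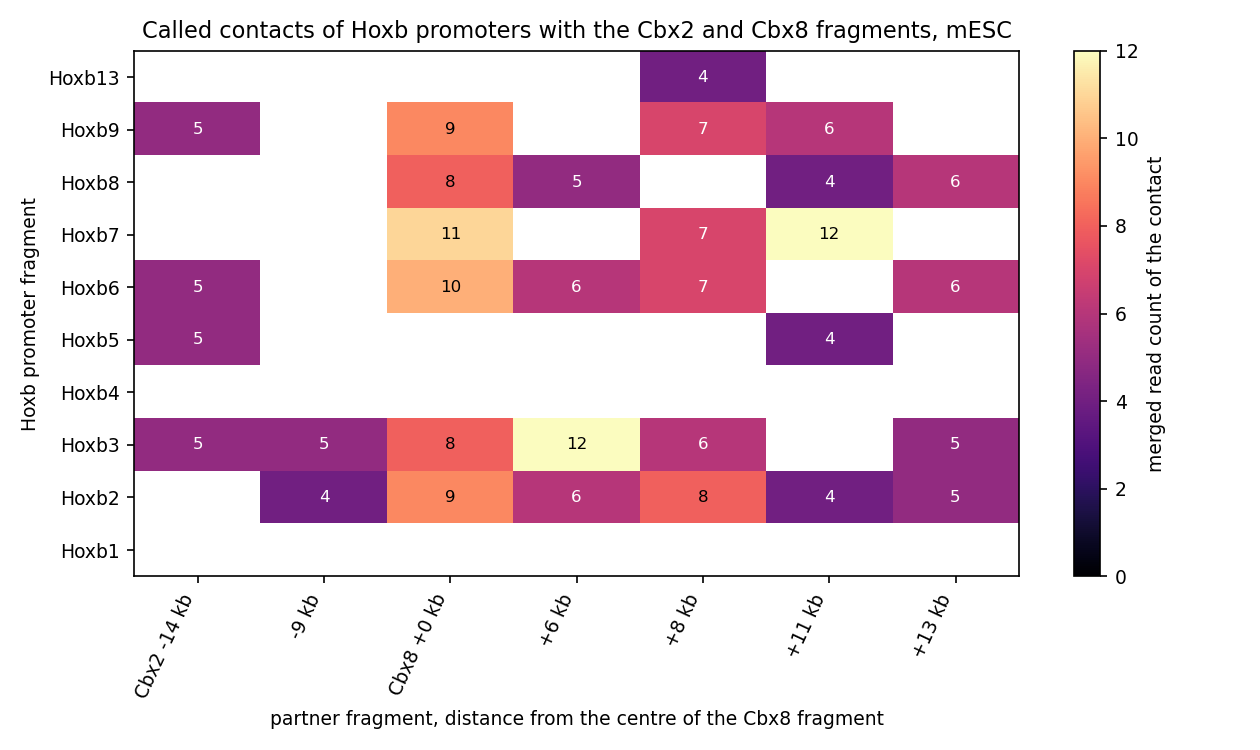
Merged read counts of called contacts between the 10 Hoxb promoter fragments (rows, in chromosomal order) and the 7 partner fragments nearest to Cbx2 or Cbx8 (columns, with the distance of each from the centre of the Cbx8 fragment in kb) in mESC, where white means that the pair was not called. The Cbx8 column is filled for 6 members with 8 to 11 reads, and the Hoxb1 and Hoxb4 rows are empty.

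A further 6 calls over 10 Mb rested on 5 reads each. Hoxb3 was paired from both ends with the fragment of Gm11772 (chr11:120096558-120102246), which also holds a start of the coding gene Bahcc1, at 23.9 Mb. Hoxb2 was contacted by the bait of Tbx2, a T-box transcription factor of limb and heart development, at 10.6 Mb, with a score of 5.1. An unnamed fragment that overlaps Tbx2 (chr11:85651130-85655125) was called from Hoxb2 and Hoxb9. Hoxb3 also contacted chr11:84340186-84344489, which lies 1263 bases from Lhx1, a LIM homeodomain gene. Of the 69 developmental regulators listed, 64 were named on a fragment in the list and Neurod2 and Tbx2 were contacted.

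Of the 694 mESC calls over 10 Mb, the 86 with a member made up 12.4%. On chromosome 11, 125 of 217 such calls had an end within the cluster, the fragments that carry no member name included.

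Only Hoxb6 and Hoxb7 had trans-chromosomal calls. Hoxb7 was paired with Hoxc5 (chr15:102843784-102847039), a homeobox gene of another Hox cluster, from both baits, on 4 reads with scores of 8.87 and 7.93. Hoxb6 was called with chr15:102785403-102788941, which overlaps exons of Hoxc11, and with chr10:79948396-79955845, which lies 1806 bases from Onecut3, on 3 reads each with a score of 5.27. Thus 2 of the 10 member fragments had such a call, against 2.03% of all baited fragments. Of 29 Hox genes of other clusters, 21 were named on a fragment, and of these names Hoxc5 was the only 1 on a contacted fragment. Counts of 3 or 4 reads merged over replicates leave little room to rank these partners.

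**Figure D4:**
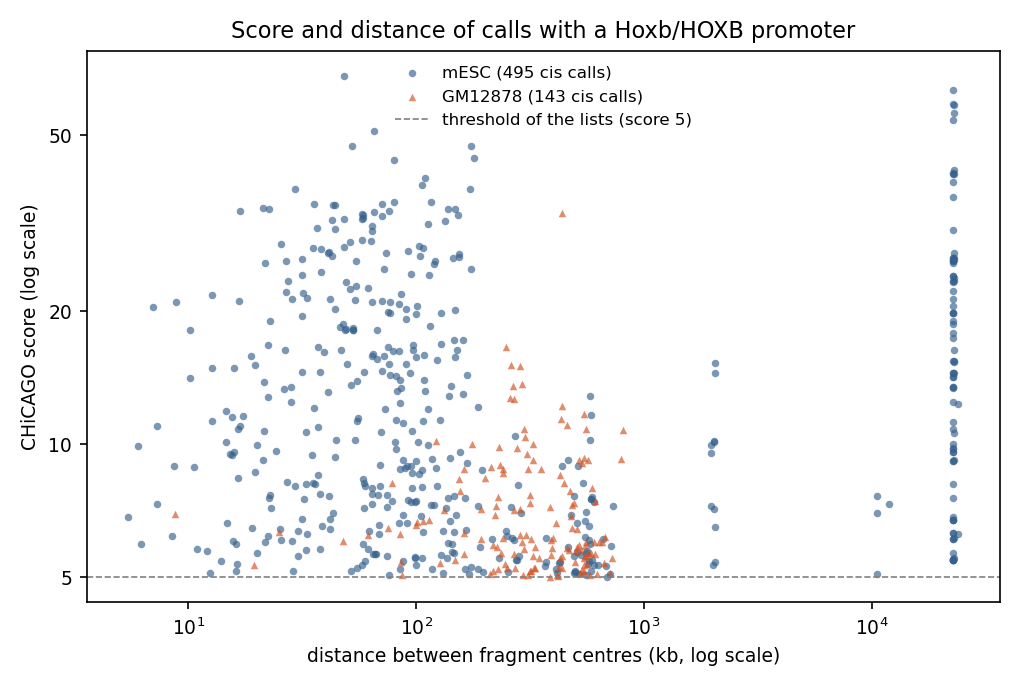
CHiCAGO score (y axis, log scale) against the distance between fragment centres in kb (x axis, log scale) for the 495 mESC and 143 GM12878 cis-chromosomal calls with a member, where each point is a call and the dashed line is the threshold of 5. The mESC calls lie at up to 732 kb, near 2 Mb, at 10.5 to 11.8 Mb and at 22.6 to 23.9 Mb. No GM12878 call lies beyond 805 kb.

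The pre-capture Hi-C library of mESCs, which the choice of members did not use, gave a view of the same contacts without capture. It may share its material with the capture libraries, so it is not taken as a separate experiment. It consists of bin pairs in which the reads exceeded the number expected from coverage and distance, in bins of 25 kb up to 1 Mb and of 1 Mb beyond, with an adjusted p value (FDR) under 0.05. Of the 262 calls within the cluster, 227 (86.6%, interval 82.0 to 90.2) lay in such a pair, and of the 136 flank calls under 1 Mb, 64 (47.1%, interval 38.9 to 55.4) did. Among all mESC calls under 1 Mb the share was 11.6%, and among those of 5 to 200 kb it was 13.2%. Only 23 such bin pairs overlapped the cluster, so its calls are not separate Hi-C observations. Neighbouring flank calls can share a bin pair too, and the intervals cover counting error only. Over 10 Mb, 85 of 86 member calls lay in a bin pair, against 81.8% of all such calls. These 85 calls lay in 4 pairs of 1-Mb bins, 79 of them in the same pair, so they are not separate Hi-C observations. All 4 trans-chromosomal calls lay in a bin pair, against 44% of all, and those to chromosome 15 shared 1 bin pair. None of the 11 calls at about 2 Mb lay in a bin pair, whereas 53.7% of all calls of 1 to 10 Mb did.

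In Hi-C, 23 bin pairs of 25 kb overlapping the cluster passed the threshold, with 1.84 to 6.66 times the expected reads and a median of 3.27. The median over all 6135 such pairs was 3.3. The highest ratio joined a bin over the flank fragments next to Hoxb13 to a bin over Hoxb4 and Hoxb3, with 154 observed against 23.1 expected read pairs.

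The 1-Mb bin that holds the cluster had 63 partner bins past the threshold, 51 of them on other chromosomes, where the median bin with any such pair had 11. The bin of Cbx2 and Cbx8 had the highest ratio of the 12 on chromosome 11, with 773 observed against 153 expected read pairs, a ratio of 5.05. The next on this chromosome, the bin after it, had 440 against 142. The bin of Tbx2 had 271 against 181. Among other chromosomes, the bin with Hoxc5 ranked 2nd by ratio with 122 against 24.9 read pairs, after the chromosome 10 bin contacted by Hoxb6, with 83 against 15.2. The Hoxa bin ranked 6th with 76 against 25.6, and the Hoxd bin 14th with 57 against 24.6. The pairs with Hoxa and Hoxd had no counterpart among the member calls. A 1-Mb bin holds many genes, so these values cannot be assigned to single promoters.

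**Figure D5:**
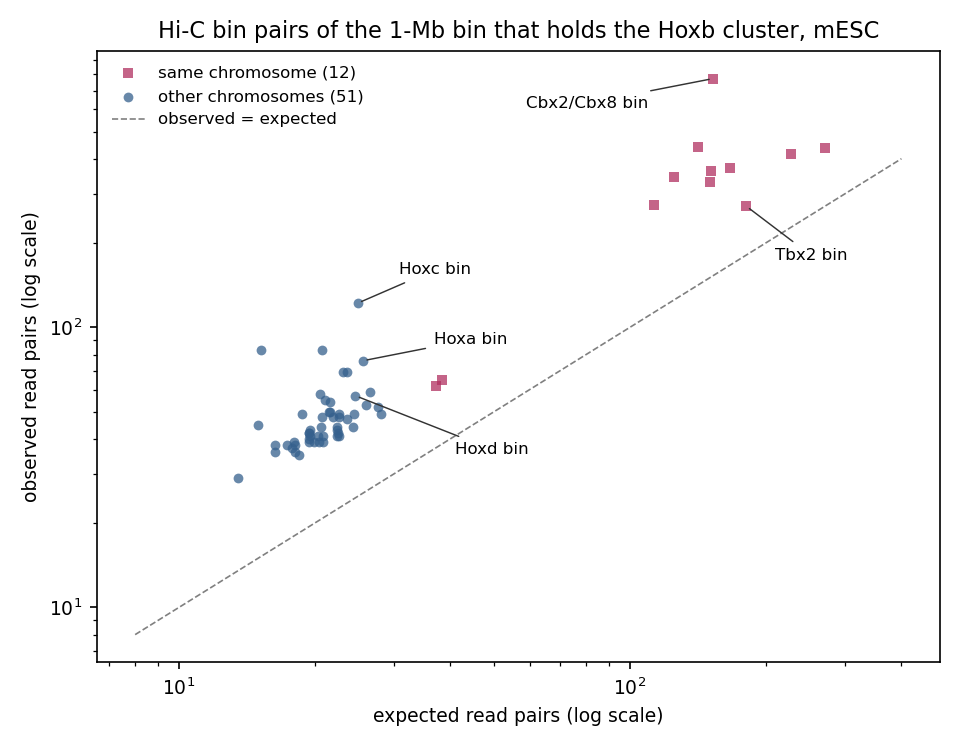
Observed against expected Hi-C read pairs (both axes log scale) for the 63 bin pairs with FDR under 0.05 that include the 1-Mb bin of the Hoxb cluster in mESC, with squares for the 12 bins on the same chromosome, circles for the 51 on other chromosomes and the dashed line at equality. The bin of Cbx2 and Cbx8 lies highest, at 773 observed and 153 expected.

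The fragments in contact were rich in CG. The median was 26.3 CG per kb over the 10 member fragments and 53.5 over the 2 of Cbx2 and Cbx8. Baited fragments are promoters, which are often rich in CG, and their median on chromosome 11 was 17.1. The unbaited partners are free of that choice. The 13 unbaited partners over 10 Mb had a median of 27.8 CG per kb, the 21 within the cluster 18.2 and the 32 on the flanks 14.1. The median over 3797 unbaited other ends of any call on chromosome 11 was 11.1, and over all its 33889 fragments 7.82. These fragments are neighbours of each other, so the values are a description without a test.

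In GM12878 the HOXB genes gave another picture. They were named on 12 fragments between chr17:46603999 and 46807447 (hg19), some of which carried several genes, and the fragment named HOXB7 holds the start of a longer HOXB7 transcript beyond HOXB9. Of the 143 calls, 2 joined fragments within the cluster and 141 led to the flanks. Of the 64 pairs of HOXB fragments that do not neighbour each other, 1 was called, where 28.3% of all pairs of baited fragments at these distances were. That pair was HOXB5 and HOXB6, which share a fragment, with HOXB3, on 34 reads with a score of 6.96. The other call within the cluster led from a HOXB2 fragment to chr17:46645377-46647449 on 32 reads with a score of 5.33.

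No HOXB call exceeded 805 kb and none was trans-chromosomal, which with 0 of 143 calls allows a share of up to 2.1% of the HOXB calls when the limit is set at 3 counts, or up to 2.62% by the Wilson interval. Of all baited GM12878 fragments, 4.29% had a call over 1 Mb, 0.175% a call over 10 Mb and 0.253% a trans-chromosomal call. A count of 0 among 12 fragments is near these shares. The baits of CBX2 and CBX8 were present, with 1 and 3 calls and a longest distance of 216 kb.

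The flank calls of GM12878 lay mainly on the HOXB1 side, with 125 of 141 (88.7%, interval 82.4 to 92.9), where SKAP1 is. In mESC that side had 56.5% (interval 48.4 to 64.2). The difference was not tested, since each cell type gave 1 set of calls, from other baits in another species. The strongest GM12878 call joined HOXB5 and HOXB6 to the fragment of SKAP1 and the microRNA gene MIR1203 (chr17:46229768-46240679), with a score of 33.38 on 24 reads at 438 kb. That fragment was paired with 6 HOXB fragments. The next 4 by score were HOXB3 to chr17:46410732-46422899 with 16.64, HOXB3 and HOXB4 to chr17:46392998-46397281 with 15.1, both in introns of SKAP1, HOXB13 from IGF2BP1 (an RNA-binding protein) with 15.05, and HOXB3 from AC090627.1, whose fragment holds the start of SKAP1-AS2, with 13.72.

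The members also took unequal parts. The HOXB3 fragment at chr17:46660464-46668809 had 40 pairs, HOXB9 had 30 and the fragment of HOXB3 and HOXB4 had 24, whereas HOXB1 had 1. Of the 36 neighbouring genes, 33 were named in the list and 7 were contacted, in 26 calls. Of these, CBX1, CDK5RAP3, COPZ2, NFE2L1, SNX11 and SKAP1 were partners in mESC too, and IGF2BP1 was contacted in GM12878 alone of the 2 lists. For these neighbours too, the share of all baited pairs called at such distances was not taken. The GM12878 list named 14 Polycomb, 53 developmental and 24 other Hox genes, and no HOXB member contacted any of them. Few baited GM12878 fragments had a call over 1 Mb (4.29%) or to another chromosome (0.253%), so the absence of such calls is common.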

How the data were processed

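Promoter Capture Hi-C (CHi-C) and Hi-C libraries were processed by the authors with HiCUP, which uses Bowtie 1.1.0 according to the submitters' processing notes, against mm9 (mouse) and hg19 (human). The authors called interactions with CHiCAGO on all replicates together, and the deposited lists hold the read count, weighted over replicates and rounded, and the CHiCAGO score of each call from a score of 5. Weighting by size factors and rounding mean that low counts are approximate. The authors' Hi-C lists (HOMER 4.7) hold for each bin pair the observed read count, an expected signal that HOMER derives from bin coverage and separation, and an FDR-adjusted p-value. The depth of the libraries was not used here, and 10 further value columns of the Hi-C lists were left out.

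Calls were read as bait and other end. Gene names were split at semicolons, commas and vertical bars, since the mESC list uses the last 2, and transcript suffixes were removed. Distances were measured between fragment centres. Fragments were annotated with GENCODE M1 (mm9) and GENCODE 44 lifted to GRCh37. A call lay in a Hi-C bin pair if its 2 fragment centres did, with 25-kb bins under 1 Mb and 1-Mb bins beyond. Shares carry Wilson 95% intervals. No test was run, since each cell type has 1 set of calls. The assignment to classes was tested on simulated data. Named were all members, the 5 calls of highest score and the 3 of most reads within the cluster, the 10 highest and the longest flank calls, flank fragments paired with at least 3 members, all named partners over 10 Mb or in trans, and contacted genes of the gene lists. In GM12878 these were the 5 highest calls. Some partners and sequences that these rules name are not reported here. The members and lists were chosen with earlier results of these data known. Alternatives were a higher score, the browser list, distinct pairs, edge distances, membership by annotated start, other distance limits and other Hi-C thresholds. Python 3.11.15 with numpy and pandas was used.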

Additional observations from a re-analysis of the deposited data

How the results depend on the processing

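Across 48 alternatives of 9 results, 36 stayed within 1.5 times the count or within the interval of the share. Counting only scores of at least 10 lowered each count by construction. The mESC calls then numbered 253, of which 161 lay within the cluster, 37 led to the flanks, 55 spanned over 10 Mb and 0 were trans-chromosomal. The GM12878 calls numbered 19, all to the flanks, with 0 within the cluster. With membership by annotated start in place of listed names, GM12878 had 1 call within the cluster, since a HOXB2 fragment has no annotated start. The share of mESC calls in a Hi-C bin pair, 76.2%, became 71.9% at a Hi-C FDR under 0.01, 80.8% with every listed bin pair and 93.7% for scores of at least 10. The distinct pairs, the browser list, the edge distances and limits of 1 or 20 Mb moved no count past 1.5 times. No paired analysis was possible because the replicates of each cell type were merged before calling, and no replicate could be left out for the same reason. The trans-chromosomal calls rest on 3 or 4 reads and the calls to Tbx2, Lhx1 and Gm11772 on 5, which limits any order among them.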
